A study of Homo sapiens with 21 samples.

Results

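The annexin family was described in HEK 293FT cells, a fast-growing human embryonic kidney line that carries the SV40 large T antigen. The 8 genes ANXA1, ANXA2, ANXA3, ANXA4, ANXA5, ANXA6, ANXA7 and ANXA11 were taken by symbol from a table of 27142 genes, and all 8 had a row. Plasmids were transfected with Lipofectamine, and polyadenylated RNA was sequenced 48 h later with a strand-specific kit. There were 7 groups of 3 biological replicates, 21 libraries in all. The hairpin groups, which carry no nuclease, received a short hairpin RNA (shRNA) against ANXA4, an shRNA against B4GALNT1 and a non-targeting (NT) shRNA. The other groups received RfxCasR, a CRISPR nuclease of the Cas13 family that follows its guide to a transcript and cuts it, with a guide RNA (gRNA) against B4GALNT1, an NT gRNA, an array of guides against ANXA4 or an NT array. B4GALNT1 makes complex gangliosides and is no annexin, so its reagents show the family when another transcript is targeted. No untransfected cells were analysed here, every library came from 1 cell line, and a plasmid that reaches only some cells gives an average over all cells. The groups were set up, per the series title, to compare how specifically both methods act.

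Annexins are cytosolic proteins that bind acidic phospholipids when calcium rises. Each has a conserved core of annexin repeats that docks on the membrane and an N-terminal tail that differs between members and recruits partners, among them S100 proteins and penta-EF-hand proteins. The family is known for membrane repair, vesicle traffic and membrane aggregation, and its members overlap in these roles, which is why the level of each paralog matters when ANXA4 is lowered.

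The line and its libraries were checked first. All 9 marker genes listed for the HEK line reached 1 FPKM (fragments per kilobase of exon per M reads) in at least 1 library, with a summed level of 584 to 907 FPKM. The listed blood markers summed to 0.845 to 2.81 FPKM, the endothelial markers to 0.019 to 0.196 FPKM and the fibroblast markers to 5.58 to 11.9 FPKM, most of it from COL1A1. PTPRC, CD3E, DCN, PECAM1, VWF and CDH5 stayed at or below 0.129 FPKM. The array groups were sequenced more deeply, with 34.7 to 39.5 M reads per library, than the 15 other libraries, with 21.3 to 30.7 M. Depths and reads given here were recovered from the FPKM values and not counted directly. The 6 array libraries went against their labels in ANXA4 itself, as the values below show, so they are named throughout as the libraries labelled ANXA4 array and labelled NT array.

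All 8 annexins were expressed, at widely spaced levels. ANXA5, which coats membranes that expose phosphatidylserine, was highest, with 130 FPKM in the lowest library, a median of 151 and 181 in the highest. ANXA6, which carries a duplicated core and binds endosomes and the plasma membrane, ranged from 64.2 to 85.9 FPKM with a median of 79.6. ANXA2, which pairs with S100A10 at the cell surface and on endosomes, ranged from 61.9 to 78.9 FPKM with a median of 66.5. These 3 genes made up 71.6% to 76.8% of the summed annexin FPKM of a library. ANXA2P2, a nearly identical processed copy of ANXA2, has its own row (median 54.8 FPKM) and is not in this sum. The rank of ANXA2 and all shares of the sum hold only for reads placed in the ANXA2 row.

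ANXA11, which has a long tail and links RNA granules to lysosomes, had a median of 44.8 FPKM (34.6 to 50.5). ANXA7, or synexin, which aggregates secretory granules, had a median of 36.9 FPKM (30.9 to 42.2). ANXA1, whose N-terminal peptides bind formyl peptide receptors, had a median of 12.5 FPKM (10.5 to 15.2). The members at the bottom were ANXA3, a gene best known from neutrophil granules, with a median of 6.27 FPKM (3.64 to 8.80), and ANXA4, a gene of secretory epithelia, with a median of 5.82 FPKM (2.15 to 7.60).

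Of the neighbours in this order, ANXA5 and ANXA6, ANXA2 and ANXA11, ANXA7 and ANXA1, and ANXA1 and ANXA3 kept their order in 21 of 21 libraries with no overlap of their ranges. ANXA6 exceeded ANXA2 in 19 of 21 libraries and ANXA11 exceeded ANXA7 in 19 of 21, with overlapping ranges. The order of ANXA3 and ANXA4 depended on the group. ANXA3 lay above ANXA4 in 3 of 3 libraries of the ANXA4 shRNA, the B4GALNT1 shRNA and both array groups, and in 0 of 3 libraries of the NT shRNA, the B4GALNT1 gRNA and the NT gRNA. ANXA4, the gene under attack, gave 0.591% to 1.79% of the summed annexin FPKM of a library.

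The other annexins on the list were close to absent. ANXA9 reached at most 0.308 FPKM and ANXA8 at most 0.016 FPKM, and ANXA8L1, ANXA10 and ANXA13 were listed at 0 in every library. None of them was tested.

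**Figure D1:**
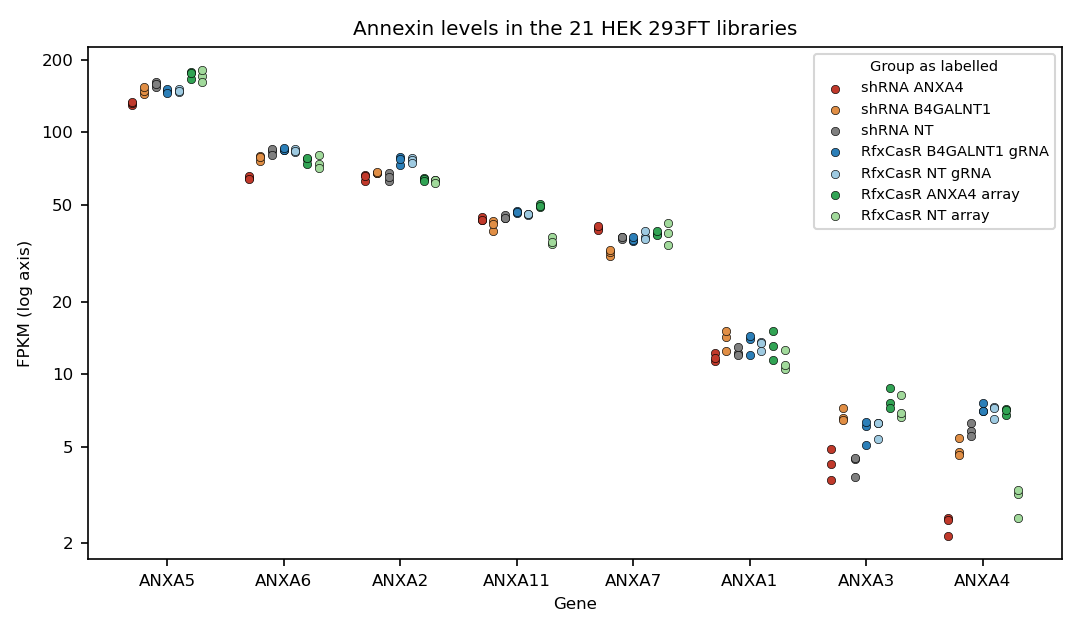
FPKM (log axis) of the 8 annexins in all 21 libraries, 1 point per library, coloured by group as labelled and ordered by mean level. ANXA5 stands above all other members, and ANXA3 and ANXA4 share the bottom of the range with the widest spread between groups.

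Because guides and hairpins act through short stretches of complementary RNA, the longest identical runs between the coding sequence of ANXA4 and those of its paralogs are shown for the paralogs called with the ANXA4 shRNA against the NT shRNA or between the array groups. Coding sequences were those of GENCODE v29 (GRCh38). Over the aligned bases, ANXA4 was 63.8% identical to ANXA11, 62.8% to ANXA5, 63.6% to ANXA6 and 57.8% to ANXA7. The longest run shared with ANXA4 had 17 bases in ANXA5, 16 in ANXA11, 14 in ANXA6, 14 in ANXA1, 13 in ANXA3 and 12 in both ANXA2 and ANXA7. Capitals mark the shared run, and 8 bases of each gene stand on either side in lower case. The ANXA11 run lies in exon 3 of ANXA4 (chr2:69788121-69788136, plus strand) and exon 5 of ANXA11 (chr10:80167231-80167246, minus strand). The ANXA5 run lies in exon 9 of ANXA4 (chr2:69816125-69816141) and exon 9 of ANXA5 (chr4:121672586-121672602, minus strand). The ANXA6 run lies in exon 11 of ANXA4 (chr2:69819305-69819318) and exon 11 of ANXA6 (chr5:151131251-151131264, minus strand). The ANXA7 run lies in exon 9 of ANXA4 (chr2:69816131-69816142) and crosses from exon 6 to exon 7 of ANXA7 (chr10:73387773-73388312, minus strand, with the intron between them).
ANXA4 at the ANXA11 run: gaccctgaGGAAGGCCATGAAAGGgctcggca
ANXA11: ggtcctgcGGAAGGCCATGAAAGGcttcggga
ANXA4 at the ANXA5 run: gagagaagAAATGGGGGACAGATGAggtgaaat
ANXA5: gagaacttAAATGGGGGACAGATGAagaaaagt
ANXA4 at the ANXA6 run: aaatctgcATATTTTGCTGAAAagctctat
ANXA6: accccggaATATTTTGCTGAAAggctcttc
ANXA4 at the ANXA7 run: agaaatggGGGACAGATGAGgtgaaatt
ANXA7: agggttttGGGACAGATGAGcaggcaat
The sequences of the hairpins and guides were not given in the sources used here, so no run was matched to a reagent.

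With the ANXA4 shRNA, ANXA4 fell, and so did ANXA5 and ANXA6, the members whose rows had the highest and the second highest median level. ANXA7 rose slightly, and no paralog rose by an amount near the loss in ANXA5 or ANXA6. ANXA4 (NM_001153, hg19 chr2:69969106-70053609, plus strand) measured 2.15, 2.56 and 2.50 FPKM in the ANXA4 shRNA libraries, against 5.82, 6.31 and 5.57 FPKM in the NT shRNA libraries. The groups did not overlap, and the level was 59.3% lower with the ANXA4 shRNA. The difference was -1.02 on the log2(FPKM + 1) scale (95% interval -1.18 to -0.86, limma adjusted p = 1.72e-09 over 13679 genes). An exact two-sided permutation test over these 6 libraries gave p = 0.1, the smallest that 3 against 3 allows. The values rest on 114 to 122 recovered reads in the ANXA4 shRNA libraries and 278 to 310 recovered reads in the NT shRNA libraries. In bulk RNA, fewer cells that carry a transcript and less of it per cell cannot be told apart.

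ANXA6 measured 64.6, 66.2 and 64.2 FPKM with the ANXA4 shRNA, against 83.7, 85.4 and 80.9 FPKM with the NT shRNA. Its difference was -0.35 log2 (95% interval -0.43 to -0.27, limma adjusted p = 2.36e-07), and the ANXA4 shRNA libraries were the lowest of all 21. ANXA5 measured 130, 132 and 134 FPKM with the ANXA4 shRNA, against 154, 162 and 159 FPKM with the NT shRNA. Its difference was -0.26 log2 (95% interval -0.34 to -0.18, limma adjusted p = 1.11e-05), and here too the 3 ANXA4 shRNA libraries lay below the other 18.

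ANXA7 was the only paralog that was called higher. It measured 40.4, 39.6 and 40.9 FPKM with the ANXA4 shRNA, against 36.8, 36.2 and 37.0 FPKM with the NT shRNA, with no overlap. The difference of 0.13 log2 (95% interval 0.03 to 0.24, limma adjusted p = 0.0345) lost its call when any 1 of these 6 libraries other than ANXA4 shRNA replicate 2 was left out, with limma adjusted p of 0.0588 to 0.0924. The call was also lost when genes were not filtered by level.

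ANXA1, ANXA2, ANXA3 and ANXA11 were not called. Their differences were -0.07, -0.01, 0.01 and -0.02 log2 in that order, and the intervals bound any rise at 0.11 log2 for ANXA1, 0.06 for ANXA2, 0.21 for ANXA3 and 0.05 for ANXA11. ANXA11 averaged 44.0 ± 0.673 FPKM with the ANXA4 shRNA and 44.6 ± 0.711 FPKM with the NT shRNA (SD, n = 3 each), a difference inside the spread of the replicates. ANXA3, the other low member, averaged 4.27 ± 0.633 FPKM with the ANXA4 shRNA and 4.24 ± 0.417 FPKM with the NT shRNA (SD, n = 3 each).

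In all, 4 of 8 members were called in this comparison, 1 higher and 3 lower, against 51.8% of all genes tested (25.6% higher and 26.3% lower). The members' median difference was -0.05 log2, beside -0.01 for all genes tested. The share of annexins called was therefore near that of the transcriptome as a whole.

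The summed level of the 7 paralogs was lower with the ANXA4 shRNA, at 362 ± 1.02 FPKM, than with the NT shRNA, at 405 ± 8.10 FPKM (SD, n = 3 each; exact two-sided permutation p = 0.1, the smallest possible). ANXA4 gave 0.658% of the summed annexin FPKM with the ANXA4 shRNA and 1.43% with the NT shRNA. The loss of ANXA5 and ANXA6 thus exceeded the whole level of ANXA4 in the control, and no rise of the other paralogs made up for that loss. Against the loss of ANXA4 alone, at -3.50 FPKM, the ANXA7 rise of 3.64 FPKM was of like size. The ANXA7 call was lost in 5 of 6 fits that left out 1 library, and a link between both changes was not tested.

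**Figure D2:**
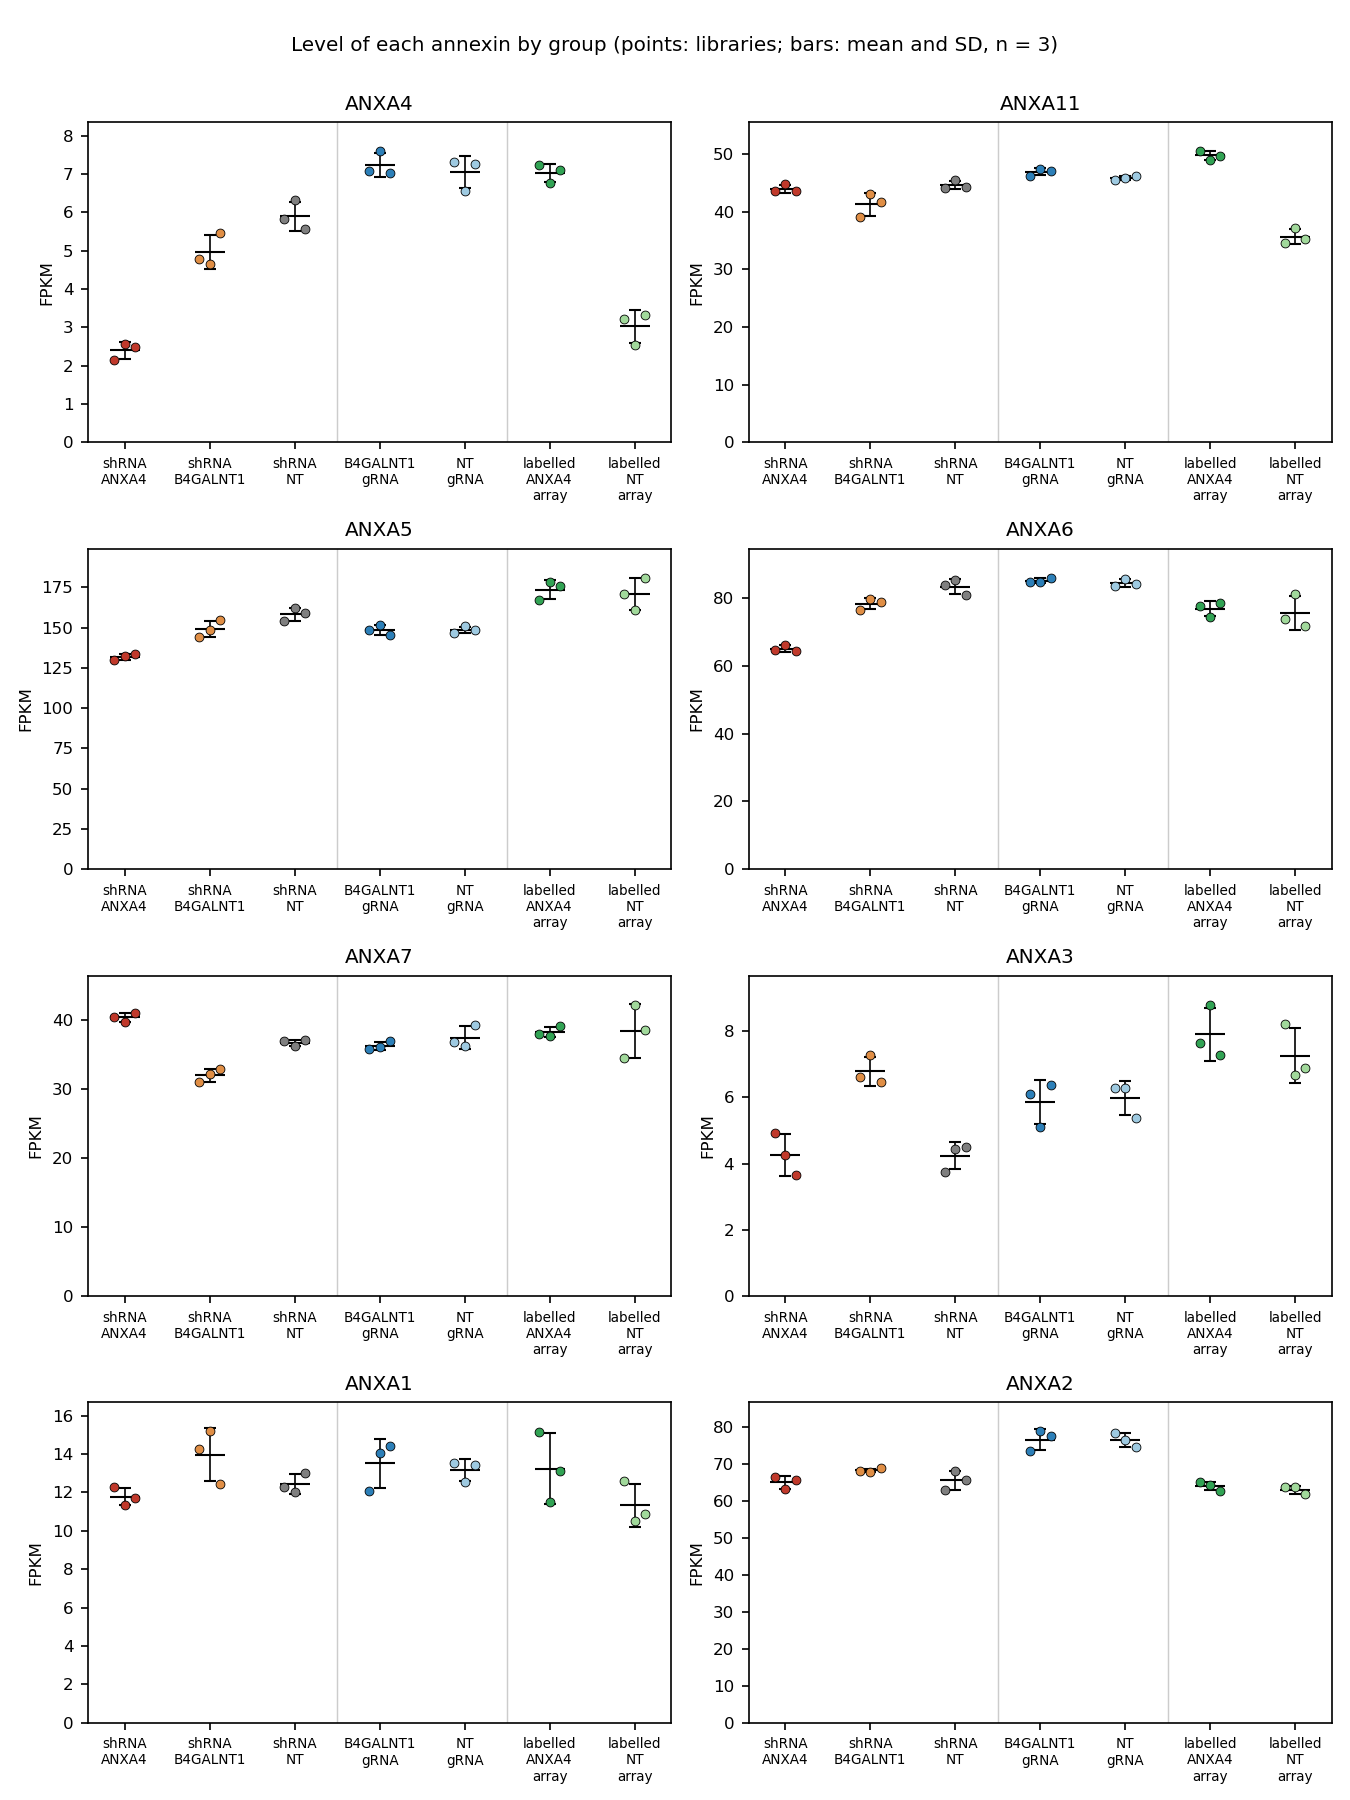
FPKM of each annexin in the 7 groups, with 1 point per library and the mean and SD (n = 3); each vertical axis starts at 0, and the array groups carry their deposited labels. ANXA4 is low in the ANXA4 shRNA libraries (2.15 to 2.56) and in the libraries labelled NT array (2.54 to 3.34), ANXA11 is low in the libraries labelled NT array (34.6 to 37.1), and ANXA5 and ANXA6 are low in the ANXA4 shRNA libraries.

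Differences from the NT shRNA can also come from that control, so the ANXA4 shRNA libraries were set against the B4GALNT1 shRNA libraries, which do not share it. ANXA6 and ANXA5 were lower here too. ANXA6 averaged 65.0 ± 1.07 FPKM with the ANXA4 shRNA and 78.3 ± 1.66 FPKM with the B4GALNT1 shRNA (SD, n = 3 each), a difference of -0.26 log2 (limma adjusted p = 1.15e-05). ANXA5 averaged 132 ± 2.01 FPKM with the ANXA4 shRNA and 149 ± 5.23 FPKM with the B4GALNT1 shRNA (SD, n = 3 each), a difference of -0.18 log2 (limma adjusted p = 0.000845).

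ANXA4 itself was lower by -0.81 log2 (limma adjusted p = 6.13e-08). ANXA7 was higher by 0.33 log2 (limma adjusted p = 3.04e-05) and ANXA3 lower by -0.57 log2 (limma adjusted p = 0.000109). ANXA3 averaged 4.27 ± 0.633 FPKM with the ANXA4 shRNA and 6.79 ± 0.435 FPKM with the B4GALNT1 shRNA (SD, n = 3 each), and the NT shRNA libraries lay near the ANXA4 shRNA ones. ANXA11, at 0.09 log2 (limma adjusted p = 0.0374), and ANXA1, at -0.22 log2 (limma adjusted p = 0.0439), passed narrowly. Leaving out 1 library ended the ANXA11 call in all cases but B4GALNT1 shRNA replicate 2 (limma adjusted p up to 0.233) and the ANXA1 call in all cases but B4GALNT1 shRNA replicate 3 (limma adjusted p up to 0.184), and the ANXA11 call also ended with median-centred libraries. Quantile normalization, only these groups in the model, no variance trend and voom on recovered reads each ended the ANXA11 call too. The ANXA1 call also ended with no filter and with no variance trend. In total 7 of 8 members were called, 2 higher and 5 lower, against 46.7% of all genes tested (27.1% higher and 19.6% lower).

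Between the array groups, ANXA4 and ANXA11 differed and the other 6 members were not called. ANXA4 measured 7.22, 6.77 and 7.12 FPKM in the libraries labelled ANXA4 array, against 3.22, 2.54 and 3.34 FPKM in the libraries labelled NT array. The libraries labelled ANXA4 array lay within the range of the RfxCasR gRNA libraries, which measured 6.56 to 7.60 FPKM, whereas those labelled NT array lay below them all. The difference as labelled was 1.00 log2 (95% interval 0.84 to 1.16, limma adjusted p = 5.37e-07; exact two-sided permutation p = 0.1). The authors' deposited table gives -1.21 log2 for ANXA4 in this comparison, the opposite sign (adjusted p = 7.53e-17 in that table). The sources used here do not settle whether the FPKM columns of the array groups are exchanged, and an exchange would turn the sign of every array difference given here.

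ANXA11 (NM_001157, hg19 chr10:81914880-81965328, minus strand) measured 50.5, 49.0 and 49.7 FPKM in the libraries labelled ANXA4 array, against 34.6, 37.1 and 35.3 FPKM in those labelled NT array. The 3 libraries labelled ANXA4 array were the highest of all 21 and the 3 labelled NT array the lowest, with the 15 others between 39.0 and 47.4 FPKM. The difference as labelled was 0.47 log2 (95% interval 0.40 to 0.54, limma adjusted p = 5.37e-07), and the authors' deposited table gives -0.47 log2 (adjusted p = 2.12e-13 in that table). Within each source, ANXA11 and ANXA4 had the same sign.

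ANXA11 had the smallest p of all genes in this comparison and ANXA4 the second smallest. Only 39 of 13679 genes, or 0.285%, were called (0.146% higher and 0.139% lower), and 2 of the 39 were annexins. The authors' deposited table calls 8 of 21789 genes (0.0367%): ANXA4 and ANXA11 led, followed by HIST2H2BE, PPP1R15A, HIST3H2A, ZNF503, ZNF703 and WDR78. PPP1R15A, which directs protein phosphatase 1 to the translation factor eIF2 alpha, came next after ANXA4 in the limma order, with 34.1 FPKM in the libraries labelled ANXA4 array and 24.9 FPKM in those labelled NT array.

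The other paralogs showed no compensating rise between the array groups. The differences as labelled were 0.20 log2 for ANXA1 (95% interval 0.02 to 0.39), 0.02 for ANXA2 (-0.05 to 0.09), 0.11 for ANXA3 (-0.10 to 0.32), 0.02 for ANXA5 (-0.06 to 0.10), 0.03 for ANXA6 (-0.05 to 0.10) and -0.00 for ANXA7 (-0.11 to 0.11), with limma adjusted p of 0.399 or more. ANXA5 averaged 173 ± 5.90 FPKM in the libraries labelled ANXA4 array and 171 ± 9.82 FPKM in those labelled NT array (SD, n = 3 each). The sum of the 7 paralogs was 423 ± 2.58 FPKM in the libraries labelled ANXA4 array and 402 ± 4.02 FPKM in those labelled NT array (SD, n = 3 each; exact two-sided permutation p = 0.1, the smallest possible). Of that difference of 21.4 FPKM, 14.1 FPKM came from ANXA11. The sum was also lower with the B4GALNT1 shRNA, at 390 ± 8.87 FPKM, than with the NT shRNA, at 405 ± 8.10 FPKM (SD, n = 3 each; exact two-sided permutation p = 0.1, the smallest possible).

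The effects of the ANXA4 reagents were compared between the methods by an interaction term, with the arrays as labelled (39.6% of all genes tested were called). ANXA6 differed by -0.38 log2 (limma adjusted p = 1.52e-05) and ANXA5 by -0.28 log2 (limma adjusted p = 0.000331). With the array comparison turned to the sign of the authors' deposited table, an alternative chosen after seeing the data, the terms were -0.33 log2 for ANXA6 (limma adjusted p = 7.64e-05) and -0.24 log2 for ANXA5 (limma adjusted p = 0.0016), both still called. ANXA11 differed by -0.49 log2 (limma adjusted p = 2.25e-07) and ANXA4 by -2.02 log2 (limma adjusted p = 6.79e-11), and both terms rest on that sign. Turned, the ANXA4 term was -0.02 log2 (95% interval -0.25 to 0.21, limma adjusted p = 0.897) and was no longer called, and the ANXA11 term was 0.45 log2 (limma adjusted p = 6.91e-07), the opposite direction. The count of annexins called was 4 as labelled and 3 when turned, where 39.1% of all genes tested were called. ANXA7, at 0.13 log2 (limma adjusted p = 0.151), was not called.

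**Figure D3:**
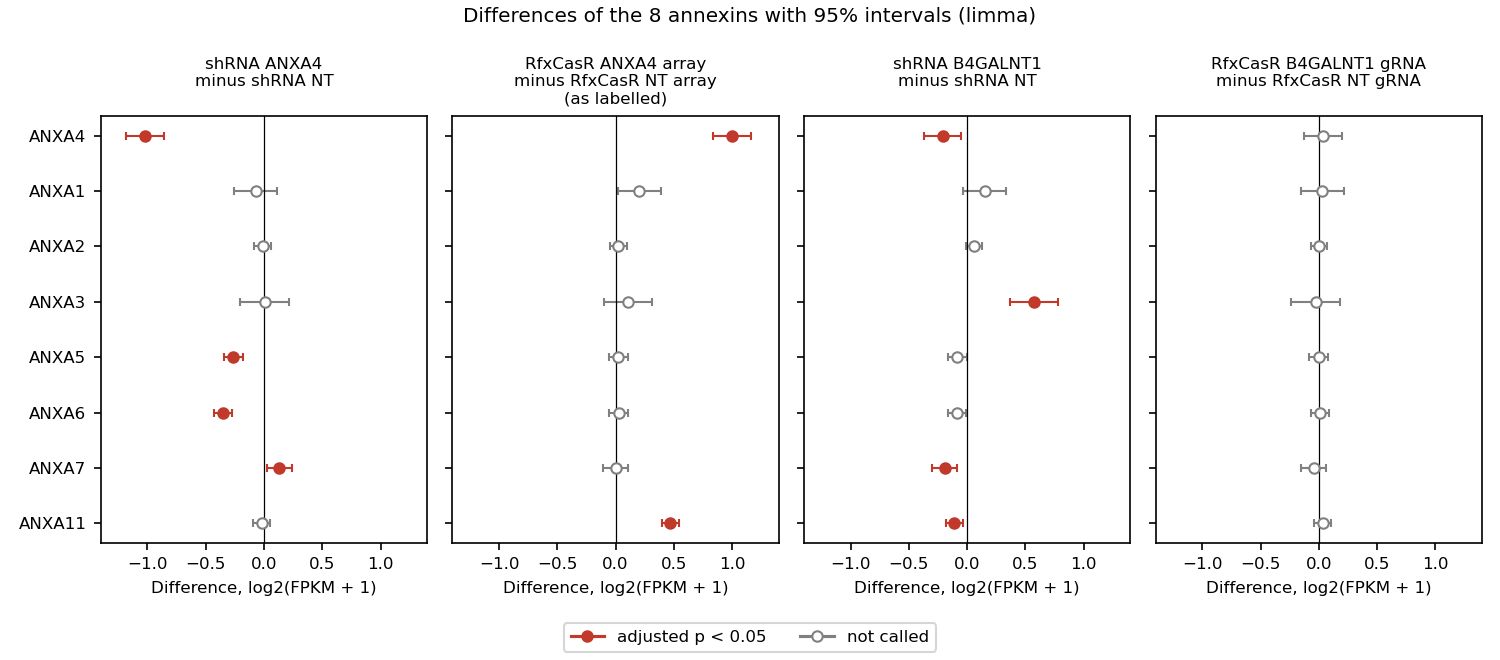
Difference of each annexin on the log2(FPKM + 1) scale with its 95% interval, for the 4 comparisons of a targeting reagent with its NT control; filled red points passed limma's adjusted p under 0.05 and open grey points did not. In the main fit shown, ANXA5 and ANXA6 were called lower with the ANXA4 shRNA and not called in the other 3 comparisons. With the B4GALNT1 shRNA both were called lower under some alternatives. ANXA4 and ANXA11 were the members called between the array groups (as labelled), and no annexin was called with the B4GALNT1 gRNA.

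With the B4GALNT1 shRNA, whose intended target is no annexin, 4 of 8 members were called. Of these 1 was higher and 3 lower, against 44.4% of all genes tested (18.4% higher and 26.0% lower). This comparison shares its NT shRNA libraries with that of the ANXA4 shRNA. ANXA3 had the largest difference, measuring 6.62, 7.28 and 6.46 FPKM with the B4GALNT1 shRNA, against 3.76, 4.45 and 4.51 FPKM with the NT shRNA, or 0.57 log2 (95% interval 0.37 to 0.78, limma adjusted p = 0.000106). The groups did not overlap, and the ANXA3 level with the NT shRNA was also below that with the NT gRNA.

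ANXA7 measured 30.9, 32.1 and 32.8 FPKM with the B4GALNT1 shRNA, against 36.8, 36.2 and 37.0 FPKM with the NT shRNA, or -0.19 log2 (limma adjusted p = 0.00431); these were the lowest 3 of all 21 libraries. ANXA11 averaged 41.3 ± 2.04 FPKM with the B4GALNT1 shRNA and 44.6 ± 0.711 FPKM with the NT shRNA (SD, n = 3 each), a difference of -0.11 log2 (limma adjusted p = 0.0138) that lost its call without B4GALNT1 shRNA replicate 1 or without NT shRNA replicate 2 (limma adjusted p of 0.0573 to 0.103), with median-centred libraries and in the authors' deposited table. Voom on recovered reads and a model of only these groups also ended the ANXA11 call. ANXA4 averaged 4.96 ± 0.439 FPKM with the B4GALNT1 shRNA and 5.90 ± 0.378 FPKM with the NT shRNA (SD, n = 3 each), or -0.21 log2 (limma adjusted p = 0.0307). This call was lost without replicate 1 or 2 of either group (limma adjusted p of 0.0571 to 0.128) and with median-centred libraries. It was also lost with no filter, with quantile normalization and with voom on recovered reads. Without B4GALNT1 shRNA replicate 1, or without NT shRNA replicate 2, 2 members were called, ANXA3 and ANXA7. ANXA5 (-0.09 log2) and ANXA6 (-0.09 log2) were not called, with limma adjusted p of 0.0749 and 0.0647 in that order. Each was called lower under 3 alternatives, among them quantile normalization and no array libraries. The third was leaving out B4GALNT1 shRNA replicate 3 for ANXA5 and NT shRNA replicate 3 for ANXA6. Limma adjusted p was then 0.0097 to 0.0403 for ANXA5 and 0.00595 to 0.0481 for ANXA6.

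With the B4GALNT1 gRNA no annexin was called by limma, by voom on recovered reads or in the authors' deposited table. Only 1 of 13679 genes (0.00731%) was called by limma and 0.0125% in that table, and 523 genes had an unadjusted p under 0.05. The intervals of the 8 members all spanned 0, the narrowest being that of ANXA2 at -0.07 to 0.07 log2 and the widest that of ANXA3 at -0.24 to 0.18. ANXA4 averaged 7.24 ± 0.314 FPKM with the B4GALNT1 gRNA and 7.04 ± 0.416 FPKM with the NT gRNA (SD, n = 3 each), and the exact two-sided permutation p was 0.6.

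The effects of the B4GALNT1 reagents on ANXA3 differed between shRNA and gRNA by 0.60 log2 (limma adjusted p = 0.00298), and those on ANXA11 by -0.14 log2 (limma adjusted p = 0.0326). These were the 2 members called by this interaction term, against 29.8% of all genes tested. B4GALNT1 itself was 31.8% lower with its shRNA and 62.4% lower with its gRNA, each against its NT control. Its NT controls were unlike, at 4.08 FPKM with the NT shRNA and 5.89 FPKM with the NT gRNA (0.43 log2, limma adjusted p = 0.000109). With the ANXA4 shRNA, B4GALNT1 stood at 5.64 FPKM. The targeting reagents left 2.78 FPKM (shRNA) and 2.21 FPKM (gRNA), so the unequal percentages rest in part on the controls. ANXA3 averaged 5.85 ± 0.668 FPKM with the B4GALNT1 gRNA and 5.98 ± 0.509 with the NT gRNA (SD, n = 3 each). Both means lay between those of the B4GALNT1 shRNA (6.79) and the NT shRNA (4.24). The ANXA11 term lost its call in 6 of the 12 fits that left out 1 library (limma adjusted p of 0.0571 to 0.0997): B4GALNT1 shRNA replicate 1, NT shRNA replicate 2, B4GALNT1 gRNA replicates 2 and 3, and NT gRNA replicates 1 and 2. Median-centred libraries and voom on recovered reads also ended this call.

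The NT controls of both methods differed in 3 members, all higher with the NT gRNA, against 48.9% of all genes tested (22.4% higher and 26.5% lower). ANXA3 averaged 5.98 ± 0.509 FPKM with the NT gRNA and 4.24 ± 0.417 FPKM with the NT shRNA (SD, n = 3 each), or 0.41 log2 (limma adjusted p = 0.00201). ANXA2 averaged 76.6 ± 1.96 FPKM with the NT gRNA and 65.7 ± 2.59 FPKM with the NT shRNA (SD, n = 3 each), or 0.22 log2 (limma adjusted p = 3.61e-05). ANXA4 averaged 7.04 ± 0.416 FPKM with the NT gRNA and 5.90 ± 0.378 FPKM with the NT shRNA (SD, n = 3 each), or 0.22 log2 (limma adjusted p = 0.0228), and that call was lost without replicate 1 or 3 of either group (limma adjusted p of 0.0587 to 0.0913). Of the members called with the ANXA4 shRNA or between the array groups, ANXA4 was thus also called between the controls, whereas ANXA5, ANXA6, ANXA7 and ANXA11 were not. ANXA5 came near, at -0.09 log2 (limma adjusted p = 0.0566), with the NT shRNA the higher control. It was called under 5 alternatives (limma adjusted p of 0.00211 to 0.0441): quantile normalization, only these groups in the model, no array libraries, the replicate block and leaving out NT shRNA replicate 1.

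ANXA2 has processed copies in the genome that are nearly identical to it. ANXA2P2 (chromosome 9) is 98.4% identical to the ANXA2 coding sequence over 1020 bases, with a longest identical run of 221 bases, so the split of reads between both rows is uncertain. In the 6 array libraries ANXA2P2 measured 70.9 to 77.7 FPKM, between 1.11 and 1.23 times the ANXA2 value. In the 15 other libraries it measured 46.2 to 60.5 FPKM, between 0.686 and 0.802 times the ANXA2 value. The array libraries thus had less ANXA2 and more ANXA2P2 than the gRNA libraries, whereas their reads in both rows together, at 198 ± 3.58 per M in those labelled ANXA4 array and 193 ± 1.90 in those labelled NT array, were close to 193 ± 5.49 with the B4GALNT1 gRNA and 191 ± 5.81 with the NT gRNA (SD, n = 3 each). The array libraries were also the deeper ones, and the part of depth in this shift was not tested. The level of ANXA2 is therefore not compared here between array and other libraries. Its rank beside ANXA6 is likewise uncertain, since reads of ANXA2 may lie in the ANXA2P2 row.

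**Figure D4:**
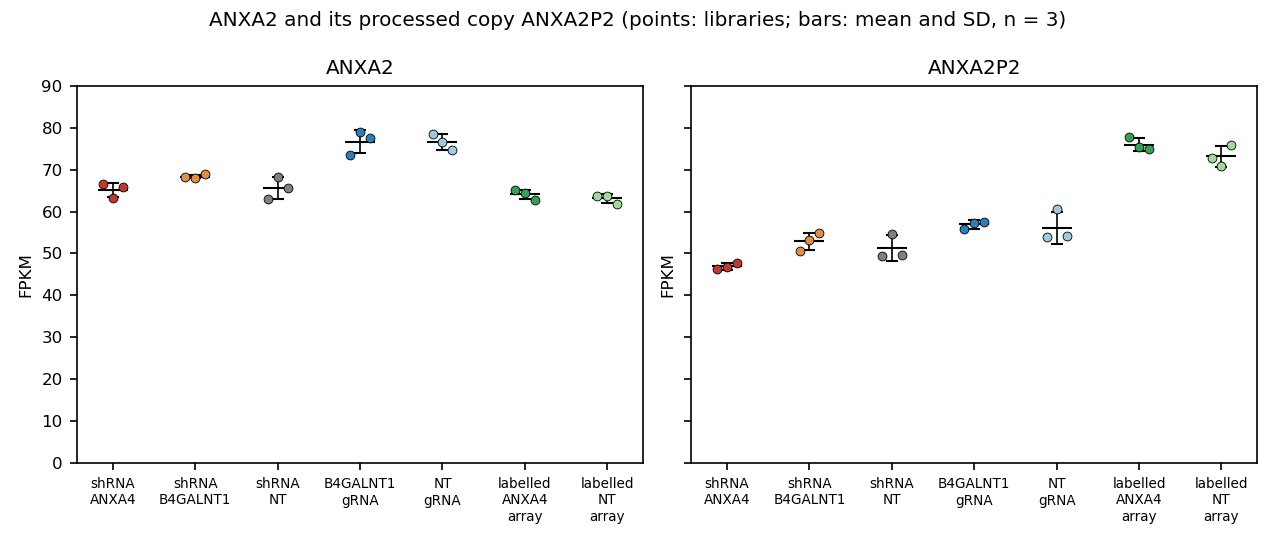
FPKM of ANXA2 and of its processed copy ANXA2P2 in the 7 groups, with 1 point per library and the mean and SD (n = 3). ANXA2P2 lies at 70.9 to 77.7 FPKM in the array libraries and at 46.2 to 60.5 FPKM elsewhere, while ANXA2 is no higher in the array libraries.

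Genes that act with annexins were described next. Of the listed S100 proteins 5 passed the filter, and with the ANXA4 shRNA 3 were higher and 0 lower, against 25.6% higher and 26.3% lower among all genes tested. S100A10, the ANXA2 partner, averaged 180 ± 1.02 FPKM with the ANXA4 shRNA and 136 ± 4.36 FPKM with the NT shRNA (SD, n = 3 each), or 0.40 log2 (limma adjusted p = 3.79e-08). S100A11, an ANXA1 partner, averaged 89.1 ± 0.867 FPKM with the ANXA4 shRNA and 71.9 ± 2.97 FPKM with the NT shRNA (SD, n = 3 each), or 0.31 log2 (limma adjusted p = 3.22e-06). S100A13, which acts in the release of proteins that lack a signal peptide, differed by 0.35 log2 (limma adjusted p = 2.31e-05).

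The NT shRNA libraries were low in this list against the other control as well. All 5 tested S100 genes were higher with the NT gRNA than with the NT shRNA, against 22.4% of all genes tested. S100A10 was at 194 ± 5.24 FPKM with the NT gRNA and 136 ± 4.36 FPKM with the NT shRNA (SD, n = 3 each; limma adjusted p = 4.12e-09). This gene was also higher with the B4GALNT1 shRNA, at 187 ± 2.52 FPKM, than with the NT shRNA (0.45 log2, limma adjusted p = 1.20e-08), so both targeting hairpins differed from that control. S100A11 was higher with the ANXA4 shRNA than with the B4GALNT1 shRNA, at 89.1 ± 0.867 FPKM against 73.7 ± 0.568 FPKM (SD, n = 3 each; 0.27 log2, limma adjusted p = 1.88e-05).

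The penta-EF-hand list holds PDCD6 and sorcin (SRI), calcium sensors that bind the tails of ANXA11 and ANXA7, and partners of PDCD6. With the ANXA4 shRNA 1 of its 6 genes was higher and 1 lower, a smaller share than the 51.8% called among all genes. They were PDCD6IP, an ESCRT adaptor, by 0.19 log2 (limma adjusted p = 0.000469) and GCA, or grancalcin, by -0.45 log2 (limma adjusted p = 0.000126). Both went the same way with the B4GALNT1 shRNA against the same control. There PDCD6IP differed by 0.18 log2 (limma adjusted p = 0.000912) and GCA by -0.28 log2 (limma adjusted p = 0.00787). Under the B4GALNT1 shRNA 4 were higher and 1 lower, against 44.4% called among all genes, with PDCD6 at 83.5 ± 2.19 FPKM with the B4GALNT1 shRNA and 67.1 ± 1.42 FPKM with the NT shRNA (SD, n = 3 each; limma adjusted p = 4.79e-05).

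The ESCRT-III list, the filaments and VPS4 ATPases that cut and seal membranes and act in repair beside annexins, was tested in all 14 genes. With the ANXA4 shRNA 3 were higher, 7 lower and 4 not called, against 25.6% higher and 26.3% lower among all genes. Their median was -0.05 log2, beside -0.01 for all genes. VPS4A averaged 45.7 ± 1.76 FPKM with the ANXA4 shRNA and 75.6 ± 0.795 FPKM with the NT shRNA (SD, n = 3 each; -0.71 log2, limma adjusted p = 1.29e-11). CHMP2B averaged 13.5 ± 0.979 FPKM with the ANXA4 shRNA and 22.1 ± 0.601 FPKM with the NT shRNA (SD, n = 3 each; -0.68 log2, limma adjusted p = 4.12e-09). The B4GALNT1 shRNA was set against the same control, and there 3 of the 14 were higher and 4 lower, a share near the 44.4% called among all genes. VPS4A was again lower, at -0.33 log2 (limma adjusted p = 9.31e-07), whereas CHMP2B was higher, at 0.50 log2 (limma adjusted p = 3.92e-07). Both genes also differed between the NT gRNA and the NT shRNA. With the NT gRNA, VPS4A averaged 63.9 ± 1.07 FPKM (SD, n = 3), or -0.24 log2 (limma adjusted p = 4.21e-05). CHMP2B averaged 28.7 ± 0.756 FPKM there (SD, n = 3), or 0.36 log2 (limma adjusted p = 2.52e-05). The mean of each gene with the ANXA4 shRNA lay below both controls.

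Copines are calcium-dependent membrane binders of another fold. The counts of the next lists are to be read against 51.8% of all genes called with the ANXA4 shRNA (25.6% higher and 26.3% lower) and 44.4% with the B4GALNT1 shRNA (18.4% higher and 26.0% lower). With the ANXA4 shRNA 2 of 5 tested copines were higher and 1 lower: CPNE3 averaged 18.2 ± 0.707 FPKM with the ANXA4 shRNA and 28.4 ± 1.23 FPKM with the NT shRNA (SD, n = 3 each; -0.62 log2, limma adjusted p = 3.20e-10), and CPNE2 was higher by 0.60 log2 (limma adjusted p = 5.42e-09). CPNE2 was also higher with the NT gRNA than with the NT shRNA (0.57 log2, limma adjusted p = 2.29e-08), whereas CPNE3 was not called between these controls. With the B4GALNT1 shRNA against the NT shRNA, CPNE3 was also lower (-0.21 log2, limma adjusted p = 0.000305). CPNE2 was higher there (0.15 log2, limma adjusted p = 0.0188). CPNE2 averaged 12.3 ± 1.06 FPKM with the ANXA4 shRNA, 12.0 ± 0.282 with the NT gRNA and 7.76 ± 0.217 with the NT shRNA (SD, n = 3 each). Of the 3 tested ferlins and extended synaptotagmins 2 were higher and 1 lower, and of 10 tested phosphatidylserine scramblases and flippases 4 were higher and 2 lower. Of 6 tested genes of the plasminogen system 2 were higher and 1 lower. The corresponding counts with the B4GALNT1 shRNA were 1 higher and 2 lower for copines, 1 and 1 for ferlins and extended synaptotagmins, 4 and 4 for scramblases and flippases, and 2 and 1 for the plasminogen system. Of the 49 tested genes of these lists, limma called 0 between the array groups, where 0.285% of all genes were called. At an unadjusted p under 0.05 there were 6 of the 49, beside 1474 of all 13679 genes. Limma called 0 of the 49 with the B4GALNT1 gRNA, where 0.00731% of all genes were called. At an unadjusted p under 0.05 there were 2 of the 49, beside 523 of all 13679 genes. The authors' deposited tables called 0 of the 74 list genes they hold between the array groups and 0 of 61 with the B4GALNT1 gRNA. The formyl peptide receptors FPR1, FPR2 and FPR3 were listed at 0 in every library.

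Across the 21 libraries, the genes whose log2 levels were most like each annexin are given as a description, since all values share the same libraries and groups. For ANXA4 they were PRPS2 (Pearson r = 0.886), IGBP1 (0.864) and PAQR8 (0.861). For ANXA11 they were PPP1R15A (0.833), ZNF274 (0.833) and SLC2A11 (0.783), and PPP1R15A and ZNF274 were among the 39 genes called between the array groups. For ANXA5 the closest gene was PAQR3 (0.969), for ANXA6 EIF4H (0.948), for ANXA3 MLLT11 (0.938), for ANXA2 MEIS3 (0.922), for ANXA7 EIF3I (0.911) and for ANXA1 INHBB (0.740). Within the family, ANXA4 was most like ANXA6 (0.793) and ANXA11 (0.645).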

How the data were processed

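The authors deposited FPKM values for 27142 genes in 21 libraries; per the file headers, HOMER tallied sense reads over exons, merged the transcripts of a gene and scaled the result, on hg19. Tools named in the submitters' processing notes are STAR, FastQC, DESeq2 1.14.1 with R 3.3.2, and HOMER. The authors' deposited tables of 4 comparisons hold a mean normalized count per gene (read as a signal), its log2 change and a p-value after adjustment, used only as the authors' values.

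Members and gene lists were chosen with earlier results of these data known. Genes that reached 1 FPKM in 3 or more libraries (13679, all 8 annexins among them) were tested on log2(FPKM + 1), which understates changes of low genes, with limma 3.58.1 (R 4.3.3): 1 model of 7 groups, variance trend, Benjamini-Hochberg adjustment over all genes tested, called under 0.05. Reads were recovered as FPKM times exon length times a depth fitted for each library. The depth was fitted to make values whole, so their wholeness is no separate check on it. With it, 95.6% to 100% of values under 400 reads were whole within 0.1, and voom on these reads was an alternative. Exact permutation tests used scipy 1.17.1. The model was also run on simulated data with independent replicates and few changed genes. The hairpin comparisons had many genes called, so that run says little about their calls. Named from each list were at most the 4 called genes with the smallest p, and for each member the most alike genes by Pearson r. ANXA4 and its paralogs' coding sequences were aligned with Biopython 1.88. Samples were grouped by their labels, and the array labels were kept as deposited, although the sources used here do not settle whether both array groups' columns are exchanged. Interval and test measure the spread between replicates only. Alternatives were other pseudocounts, filters, scalings, libraries, a replicate block and leaving out each library.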

Additional observations from a re-analysis of the deposited data

Results flagged for a closer look

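The ANXA4 reagents had different effects by method, shRNA minus array as labelled, in 4 annexins. The interaction terms were -2.02 log2 for ANXA4 (SE 0.108, limma adjusted p = 6.79e-11), -0.49 log2 for ANXA11 (SE 0.049, limma adjusted p = 2.25e-07), -0.38 log2 for ANXA6 (SE 0.053, limma adjusted p = 1.52e-05) and -0.28 log2 for ANXA5 (SE 0.054, limma adjusted p = 0.000331). The ANXA4 term combines opposite signs as labelled, since the libraries labelled ANXA4 array had more ANXA4 than those labelled NT array. Turned to the sign of the authors' deposited table, the array comparison gives terms of -0.02 log2 for ANXA4 (limma adjusted p = 0.897), 0.45 log2 for ANXA11 (limma adjusted p = 6.91e-07), -0.33 log2 for ANXA6 (limma adjusted p = 7.64e-05) and -0.24 log2 for ANXA5 (limma adjusted p = 0.0016), so the count of 4 and the ANXA4 and ANXA11 terms rest on the labels.

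The B4GALNT1 reagents had different effects by method, shRNA minus gRNA, in ANXA3, at 0.60 log2 (SE 0.140, limma adjusted p = 0.00298), and in ANXA11, at -0.14 log2 (SE 0.049, limma adjusted p = 0.0326). B4GALNT1 itself was 31.8% lower with its shRNA and 62.4% lower with its gRNA, each against its NT control. The NT shRNA was the lower control, at 4.08 FPKM against 5.89 FPKM with the NT gRNA. Equal knockdown therefore cannot be assumed for these terms.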

How the results depend on the processing

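The count of annexins called was within 1.5 times its main value under the other settings except in the B4GALNT1 comparisons. For the B4GALNT1 shRNA against the NT shRNA, 4 members became 2 at an adjusted p under 0.01 and 2 with voom on recovered reads, and 2 to 5 when 1 library was left out. For the difference of the B4GALNT1 effects, 2 members became 1 with median-centred libraries, 1 at an adjusted p under 0.01, 1 with voom, 4 without the array libraries, and 1 to 3 when 1 library was left out; the cause was not tested. In the authors' deposited table the array differences have the opposite sign, -1.21 log2 for ANXA4 and -0.47 log2 for ANXA11 (adjusted p = 7.53e-17 and 2.12e-13 in that table). With the array comparison turned to the sign of that table, an alternative chosen after seeing the data, the interaction term was 0.45 log2 for ANXA11 and -0.02 log2 for ANXA4, which was no longer called. The ANXA4 difference as labelled was 0.91 to 1.06 log2 when 1 library was left out, and that of the ANXA4 shRNA was -1.06 to -0.97 log2. The ANXA7 rise with the ANXA4 shRNA had limma adjusted p of 0.00328 to 0.0924 over its alternatives.

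The replicate block left 7 of 8 annexin counts as they were and gave 4 instead of 3 members between the NT gRNA and the NT shRNA. Libraries of the same number did not deviate together (correlations -0.146 to 0.0901, 0 of 18 pairs over 0.1), so the numbers were not treated as pairs. Of all genes, 39 were called between the array groups, 3 with only those groups in the model, 115 with voom and 8 in the authors' deposited table. ANXA4 and ANXA3 rest on the fewest reads of the members, 114 to 607 and 132 to 518 per library, and small changes of ANXA3 or ANXA1 were not detectable at this spread.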
